A study of Mus musculus with 8 samples.

Results

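The genes described here are 10 genes of vitamin D metabolism measured in whole kidney of mice, with and without the calcimimetic drug cinacalcet. They were taken by name, from the vitamin D pathway: the hydroxylase genes Cyp27b1, Cyp24a1, Cyp2r1 and Cyp27a1, the vitamin D receptor gene Vdr, its partner receptor genes Rxra and Rxrb, the uptake receptor genes Lrp2 and Cubn, and Gc, which encodes the plasma vitamin D binding protein. They were measured by 14 probes of 55681 on the array, found through the RefSeq accession of each probe. All 10 genes passed the filter on dim probes and were tested among 14209 named genes. The 4 control samples came from mice on standard chow, and the 4 treated samples from mice given cinacalcet HCl for 5 days at a dose the labels give as 1 mg per g body weight. All 8 samples carry the labels male and 12 weeks, whole kidneys were used, and no strain or genetic change is named. Whether every sample is a separate mouse is not said in the labels, so the tests speak only to variation among these samples, part of which may be technical.

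Vitamin D becomes a hormone by 2 hydroxylations. CYP2R1, and to a lesser extent CYP27A1, makes 25-hydroxyvitamin D, mainly in the liver. The kidney's proximal tubule takes this up, bound to its carrier protein, through the endocytic receptors megalin (Lrp2) and cubilin (Cubn), and CYP27B1 turns it into the active hormone calcitriol. CYP24A1 breaks down both forms. Parathyroid hormone raises Cyp27b1, while FGF23 and calcitriol lower it and raise Cyp24a1. Cinacalcet activates the calcium-sensing receptor and lowers parathyroid hormone secretion.

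Each sample was read on a one-colour array, all of them on 1 slide. On a linear scale the arrays' 75th percentiles lay between 202.9 and 257.1, and between 51.8% and 58.0% of spots were well above background. A level below is the log2 intensity of a probe minus the log2 of this percentile on its array, so that 0 equals the percentile. A difference is the mean level with cinacalcet minus the mean control level, from limma, with p-values adjusted over all genes tested (Benjamini-Hochberg, threshold 0.05). Probes differ in how brightly they bind, so levels are compared between arrays and never between genes. All 8 proximal tubule markers, all 4 of the thick ascending limb and all 5 of podocytes passed the filter.

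On 3 arrays the data went against the label male. The arrays labelled control 4, cinacalcet 2 and cinacalcet 3 had none of 4 Y-linked genes well above background, and their Xist levels were 0.95, 0.46 and 0.73. The other 5 arrays had 3 or 4 of these genes above background and Xist levels of -6.99 to -4.22. The summed level of 6 genes with male-biased kidney expression, in multiples of the 75th percentile, was 296.7 to 1186 on the 3 arrays and 1445 to 2097 on the other 5. Many results below are therefore given also after blocking on Y-linked signal, or on the 5 arrays alone, both settings chosen after seeing the data. In 24.4% of all genes tested the 3 arrays did not overlap the other 5, and the same held for 4 of the 10 vitamin D genes: Gc, Lrp2, Rxra and Rxrb.

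None of the 10 genes passed the threshold in limma, where 8.02% of all genes tested did (3.37% higher and 4.64% lower). At an unadjusted p under 0.05 the count was 1 of 10, namely Cyp27b1, against 27.9% of all genes. The groups overlapped in all 10 genes, whereas in 17.8% of all genes tested they did not. The median difference was 0.11 over the 10 genes and -0.029 over all genes tested. The estimates for Cyp27b1, Rxrb and Cyp2r1 lay below 0 and the other 7 above it. None of the 14 probes passed when all named probes were fitted, where 7.54% did. In whole kidney a change in the number of cells that carry a transcript and a change in the transcript per cell cannot be told apart.

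**Figure D1:**
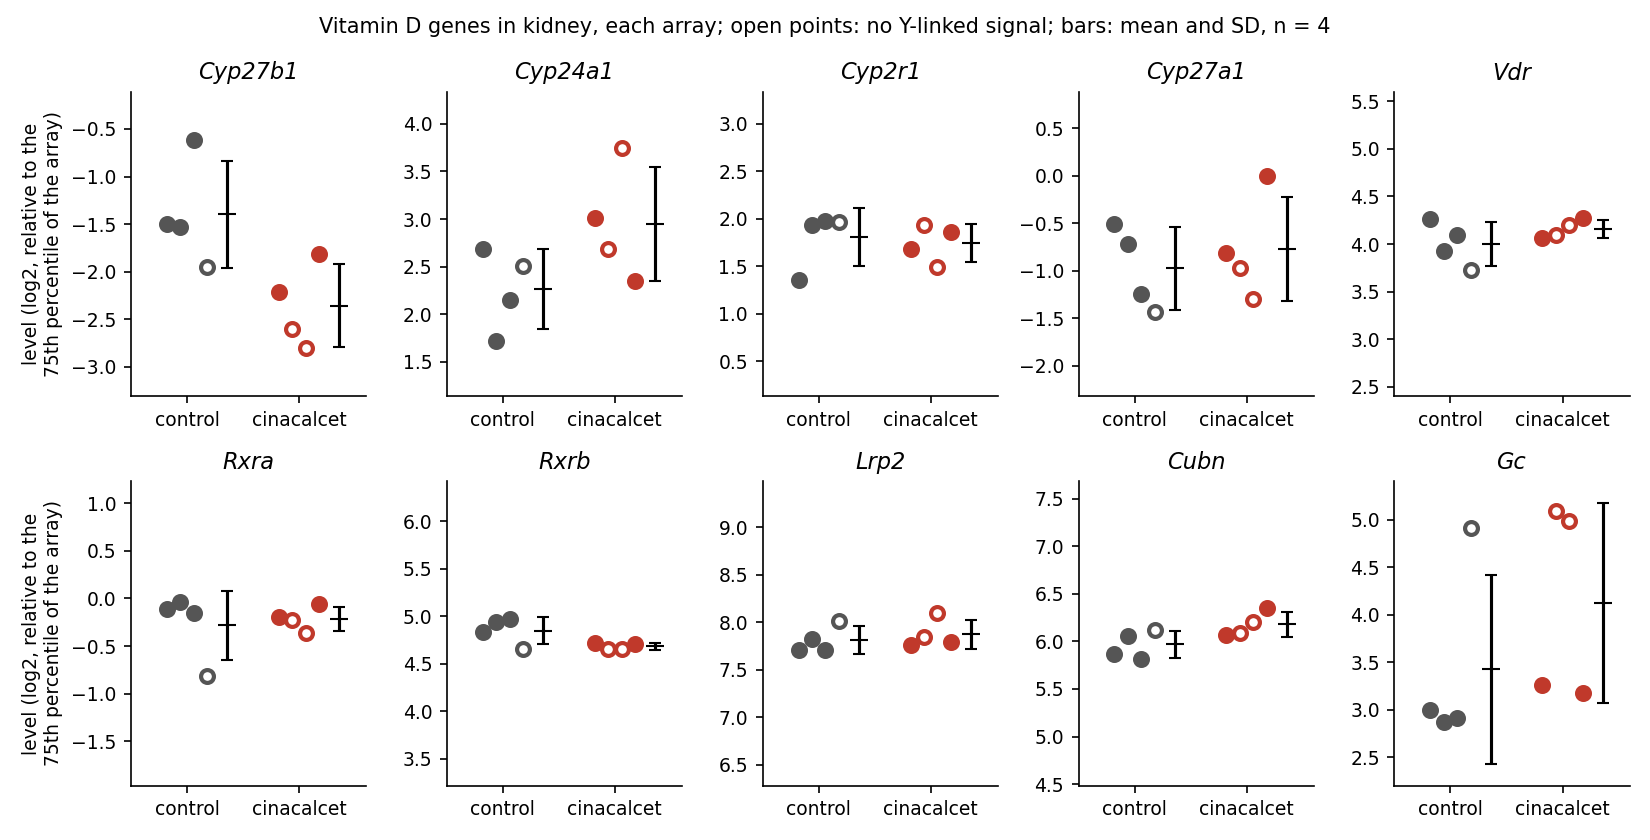
Level of each vitamin D gene on each array (log2, relative to the 75th percentile of the array), with all panels spanning the same log2 range. Grey points are control and red points cinacalcet, ordered by replicate number. Open points are the 3 arrays without Y-linked signal, and bars give mean and SD with n = 4. Cyp27b1 is lower and Cyp24a1 higher on most cinacalcet arrays, with overlap, and the open Gc points lie at 4.92 to 5.09, above all filled ones.

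Cyp27b1, the 1α-hydroxylase gene that makes calcitriol, had a lower mean with cinacalcet and did not pass the threshold. Its levels were -1.50, -1.53, -0.62 and -1.95 on control arrays 1 to 4. They were -2.21, -2.60, -2.81 and -1.82 on cinacalcet arrays 1 to 4. The groups overlapped by 1 pair of arrays, since the lowest control, array 4, lay just below the highest cinacalcet array, also number 4. The group means were -1.40 ± 0.56 and -2.36 ± 0.44 (SD, n = 4 each). The difference was -0.96 (SE 0.31, 95% interval -1.67 to -0.25, limma adjusted p = 0.0931), a 1.95-fold lower level.

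The overlapping pair of arrays in Cyp27b1 differed in Y-linked signal. The mean of the 3 arrays without it minus that of the other 5 was -0.92, with overlap. Those 3 are control 4, cinacalcet 2 and cinacalcet 3, so this gap mixes that signal with treatment. Among the 5 arrays with Y-linked signal, both cinacalcet arrays lay below all 3 control arrays, with a difference of -0.80 (limma adjusted p = 0.166), in a fit that called 7.85% of all genes. Among the other 3, both cinacalcet arrays lay below control 4, by 0.75 between means, stated here as values with no test. After blocking on Y-linked signal the difference was -0.78 (SE 0.22) and passed narrowly (limma adjusted p = 0.0488), in a fit that called 17.0% of all genes. It likewise passed when control 4 was left out, at -1.14 (limma adjusted p = 0.0378), in a fit that called 23.6% of all genes. Normexp background correction gave a smaller difference of -0.60 (limma adjusted p = 0.0584). Macrophages can also carry Cyp27b1, and the summed level of the 4 measured macrophage markers of 6 was 29.1 to 31.9 in controls and 18.8 to 24.5 with cinacalcet, with 3 of the 4 lower in limma. Among the markers, Cd68 and Cd163 did not pass the filter on dim probes. The part of these cells in the Cyp27b1 result was not tested.

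The 250 bases before the Cyp27b1 start are shown because this gene had the lowest p of the members. The sequence is from RefSeq (GRCm38.p6, chr10:127047996-127048245, plus strand), printed 5′ to 3′, and the capitals mark a CCAAT box read on the opposite strand, 86 to 82 bases before the start.
Cyp27b1: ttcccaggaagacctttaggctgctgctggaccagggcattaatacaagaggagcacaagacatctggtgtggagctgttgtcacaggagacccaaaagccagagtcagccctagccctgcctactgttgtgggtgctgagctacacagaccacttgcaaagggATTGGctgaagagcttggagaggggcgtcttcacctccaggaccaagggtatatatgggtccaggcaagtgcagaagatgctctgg
Promoters of 9 of the 10 genes were matched in this set, and the other gene is Cyp24a1. All were searched on both strands over 250 bases for 6 motifs: CCAAT, the TATA box TATAAA, the nuclear receptor half-site AGGTCA, a direct repeat of AGGTCA with any 3 bases between the copies, the cAMP response element TGACGTCA and the HNF1 motif, TTAAT and ATTAA with any 1 base between them. The direct repeat, the form that the vitamin D receptor is known to bind with a retinoid X receptor, contains the half-site, and no other motif holds another. CCAAT was found before Cyp27b1, Cyp2r1, Cyp27a1 and Gc, and in 33.8% of all promoters of this length. The half-site was found before 1 start of Rxra and in 14% of all promoters. TATAAA, the cAMP response element and the direct repeat were found before none of the 9 genes, and in 12.4%, 1.55% and 0.00609% of all promoters.

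Cyp24a1, the 24-hydroxylase gene that degrades vitamin D, had a higher mean with cinacalcet and did not pass the threshold. Its levels were 2.68, 1.72, 2.15 and 2.50 on control arrays 1 to 4. They were 3.01, 2.68, 3.75 and 2.35 on cinacalcet arrays 1 to 4. The groups overlapped, with cinacalcet 4 below control arrays 1 and 4 and cinacalcet 2 level with control 1. The difference was 0.68 (SE 0.32, 95% interval -0.052 to 1.42, limma adjusted p = 0.207), or 1.61-fold. It was 0.57 after blocking on Y-linked signal (limma adjusted p = 0.230) and 0.49 on the 5 arrays that have it (limma adjusted p = 0.368).

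The difference in Cyp24a1 was unlike in slide rows 1 and 2. Within slide row 1, with control arrays 2 and 3 against cinacalcet arrays 1 and 3, it was 1.44. Within slide row 2, with the other 4 arrays, it was -0.078. Neither passed (limma adjusted p = 0.135 and 0.973), in fits that called 1 and 0 of all 14209 genes, and the difference between rows was not tested. Both controls of row 1 have Y-linked signal and cinacalcet 3 lacks it, while in row 2 control 4 and cinacalcet 2 lack it. Among arrays with Y-linked signal, cinacalcet 1 (3.01) lay above controls 2 and 3 (1.72 and 2.15) in row 1. In row 2 cinacalcet 4 (2.35) lay below control 1 (2.68). These are single arrays, and the parts of row and Y-linked signal were not tested. Within slide rows 1 and 2 the differences for Cyp27b1 were -1.44 and -0.48 (limma adjusted p = 0.151 and 0.879). In the fit with array weights Cyp27b1 and Cyp24a1 passed in opposite directions, at -1.33 and 0.93 (limma adjusted p = 0.0117 and 0.0454). That fit called 38.3% of all genes.

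**Figure D2:**
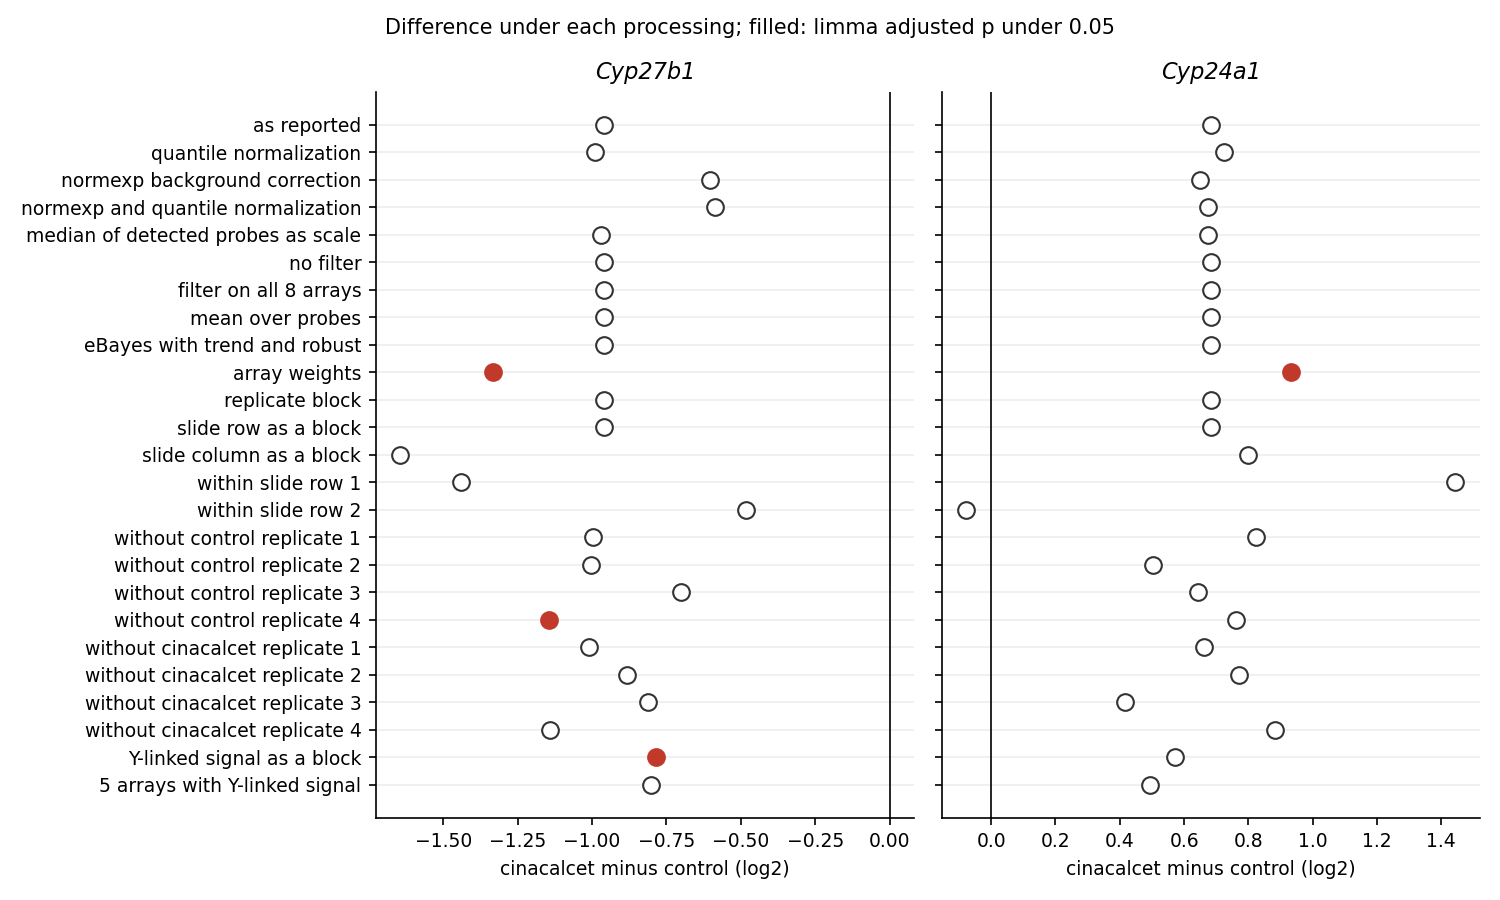
Difference in Cyp27b1 (left) and Cyp24a1 (right), cinacalcet minus control on the log2 scale, as reported and under each of 24 alternatives, 1 per line. Filled points passed at a limma adjusted p under 0.05. All Cyp27b1 differences are below 0, from -1.64 to -0.48, and those of Cyp24a1 are above 0 except for -0.078 within slide row 2. Some alternatives, such as replicate number or slide row as a block, leave the estimate as reported by their design. The -1.64 is with slide column as a block, where both control arrays that count have Y-linked signal and both cinacalcet arrays lack it.

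Neither enzyme gene of the first hydroxylation passed the threshold. Cyp2r1, the principal 25-hydroxylase gene, was at 1.35, 1.93, 1.98 and 1.97 on control arrays and at 1.68, 1.93, 1.50 and 1.86 on cinacalcet arrays. Control 1 was the lowest of all 8 arrays and the other 3 controls were nearly equal. The difference was -0.065 (95% interval -0.44 to 0.31, limma adjusted p = 0.827). A dimmer probe of Cyp2r1, above background on 7 of 8 arrays, gave -0.48 (95% interval -1.34 to 0.37, limma adjusted p = 0.435 over all named probes).

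Cyp27a1, a mitochondrial sterol 27-hydroxylase gene that can also 25-hydroxylate vitamin D, had a wider spread. Its levels were -0.50, -0.72, -1.25 and -1.44 on control arrays and -0.81, -0.97, -1.30 and -0.0056 on cinacalcet arrays. Cinacalcet 4 stood highest and the groups overlapped over most of their range. The difference was 0.20 (95% interval -0.50 to 0.91, limma adjusted p = 0.697). This probe is printed 10 times on each array, and the SD among its 9 or 10 usable spots was 0.067 to 0.11 on each array, which covers spot noise only, since these spots share RNA, labelling and hybridisation. The SD among samples was 0.44 in controls and 0.55 with cinacalcet.

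Vdr, the nuclear receptor for calcitriol, was at 4.26, 3.93, 4.09 and 3.72 on control arrays and at 4.06, 4.09, 4.20 and 4.27 on cinacalcet arrays. The cinacalcet arrays lay within the upper part of the control range, apart from cinacalcet 4, which was just above it. The difference was 0.16 (95% interval -0.12 to 0.43, limma adjusted p = 0.434). The interval as a ratio of cinacalcet to control ran from 0.919 to 1.35.

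The retinoid X receptors pair with the vitamin D receptor on DNA. Rxrb was at 4.83, 4.93, 4.97 and 4.66 on control arrays and at 4.72, 4.65, 4.65 and 4.71 on cinacalcet arrays. All 4 cinacalcet arrays lay below controls 1 to 3, and control 4 lay among them. The difference was -0.17 (95% interval -0.36 to 0.024, limma adjusted p = 0.231), and it passed without control 4, at -0.23 (limma adjusted p = 0.0368). After blocking on Y-linked signal it was -0.13 (limma adjusted p = 0.215).

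Neither probe of Rxra passed the threshold. The brighter probe was at -0.11, -0.033, -0.15 and -0.82 on control arrays and at -0.20, -0.23, -0.37 and -0.059 on cinacalcet arrays. Control 4 was far below the other 7 arrays, and the difference of 0.067 (limma adjusted p = 0.832) became -0.11 without it. The dimmer probe gave a difference of 0.28 (95% interval 0.018 to 0.55, limma adjusted p = 0.160 over all named probes), with controls at -1.96 to -1.56 and cinacalcet arrays at -1.68 to -1.38.

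Lrp2 and Cubn, the receptors that carry the filtered vitamin D complex into the proximal tubule, did not pass the threshold. Lrp2 was at 7.70, 7.82, 7.71 and 8.02 on control arrays and at 7.76, 7.84, 8.10 and 7.80 on cinacalcet arrays. The 3 highest arrays were those without Y-linked signal. The difference was 0.061 (95% interval -0.18 to 0.30, limma adjusted p = 0.739), a ratio of 0.882 to 1.23.

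Cubn was at 5.87, 6.06, 5.82 and 6.12 on control arrays and at 6.07, 6.09, 6.20 and 6.35 on cinacalcet arrays. Only control 4 lay above the lowest cinacalcet arrays. The difference was 0.21 (95% interval -0.018 to 0.44, limma adjusted p = 0.211), or 1.16-fold. A dimmer Cubn probe was at 0.17 to 0.42 in controls and 0.51 to 0.93 with cinacalcet, with a difference of 0.34 (SE 0.11, limma adjusted p = 0.0998 over all named probes). The groups did not overlap on this probe, which was the case for 17.5% of named probes. The summed level of the 8 proximal tubule markers was 910.7 to 1186 in controls and 940.9 to 1200.2 with cinacalcet, with none past the threshold. This sum split the arrays by Y-linked signal, at 910.7 to 971.6 on the 3 arrays without it and 1056.7 to 1200.2 on the other 5. The summed level of 4 late proximal tubule markers was 138.6 to 306.2 in controls and 91.3 to 156.4 with cinacalcet, with a median difference of -0.98 and none past the threshold. By Y-linked signal it was 91.3 to 138.6 on the 3 arrays without it and 123.0 to 306.2 on the other 5. The part of these segments in the Lrp2 and Cubn values was not tested.

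**Figure D3:**
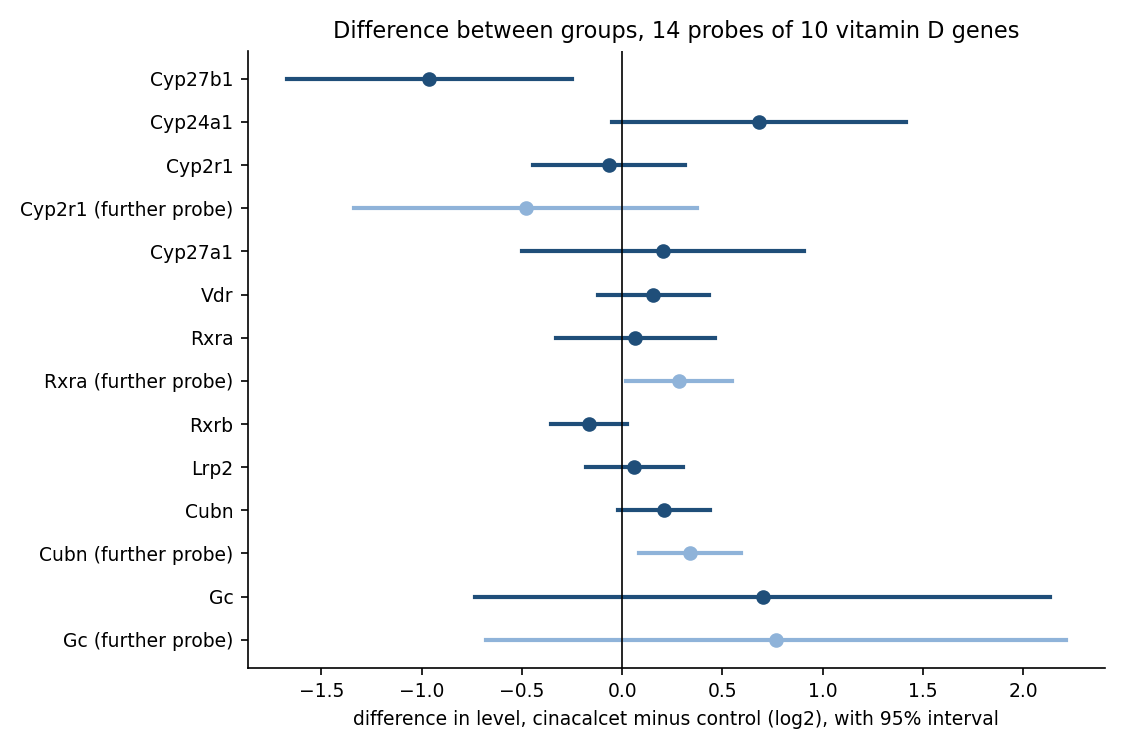
Difference in level, cinacalcet minus control (log2), for the 14 probes of the 10 genes, with 95% intervals from limma. Dark points are the brightest probe of each gene and light points further probes. Cyp27b1 lies below 0, the further probes of Rxra and Cubn lie above 0, and the intervals of the other 11 probes include 0.

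Gc levels split the arrays by Y-linked signal, across both groups. Its levels were 3.00, 2.87, 2.91 and 4.92 on control arrays 1 to 4. They were 3.26, 5.09, 4.98 and 3.18 on cinacalcet arrays 1 to 4. The 3 arrays without Y-linked signal lay at 4.92 to 5.09 and the other 5 at 2.87 to 3.26, a gap between means of 1.95. A second Gc probe showed the same split, with 3.40, 3.72 and 3.45 on the 3 arrays and 1.24 to 1.77 on the others.

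The group difference in Gc was 0.70 with a wide interval (95% interval -0.73 to 2.14, limma adjusted p = 0.495). After blocking on Y-linked signal it was 0.23, its SE fell from 0.62 to 0.069, and it did not pass (limma adjusted p = 0.0602). On the 5 arrays with that signal the cinacalcet arrays lay at 3.26 and 3.18, above the controls at 2.87 to 3.00, and on the other 3 the means were 0.12 apart. Gc is best known as a liver product, and 3 of 6 hepatocyte markers passed the filter, Apoa1, Ahsg and Cyp2c29 being the others. Their summed level was 2.53 to 3.76 on the arrays without Y-linked signal and 1.33 to 1.77 on the other 5. By group it was 1.54 to 3.76 in controls and 1.33 to 2.68 with cinacalcet. The median difference of the 3 markers was -0.96, with 1 lower in limma, and their part in the Gc result was not tested.

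The 250 bases before the Gc start are shown because its levels split the arrays, and because they hold a motif found before no other member (RefSeq, GRCm38.p6, chr5:89457899-89458148, minus strand). The capitals mark CCAAT, 225 to 221 bases before the start, and a match to the HNF1 motif, 51 to 41 bases before it.
Gc: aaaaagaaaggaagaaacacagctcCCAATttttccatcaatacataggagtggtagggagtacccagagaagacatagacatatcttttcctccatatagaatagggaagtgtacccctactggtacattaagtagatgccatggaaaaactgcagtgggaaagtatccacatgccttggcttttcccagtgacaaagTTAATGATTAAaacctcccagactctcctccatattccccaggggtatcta
The HNF1 motif, named for a transcription factor family of liver and kidney, was found in 0.116% of all promoters of this length and before no other gene of the 9. The match describes these letters only.

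**Figure D4:**
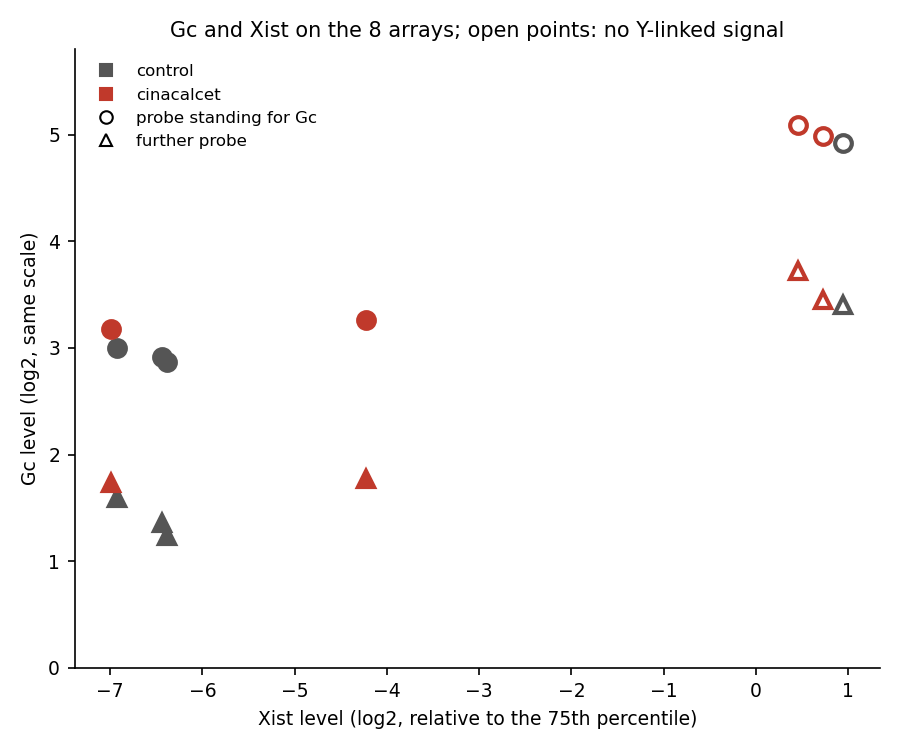
Gc level on each array for both probes (circles and triangles, log2 relative to the 75th percentile) against the level of Xist, the X-inactivation transcript, on the same array. Grey is control and red cinacalcet, and open points lack Y-linked signal. For both probes the 3 open points, 1 control and 2 cinacalcet, lie above the 5 filled ones.

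Genes that regulate or use the pathway were followed in 7 lists, and 6 of their 61 measured genes passed the threshold, which is close to the 8.02% of all genes tested. Single lists hold 5 to 12 measured genes, so their counts are read as descriptions of these genes only, beside 3.37% higher and 4.64% lower among all genes. In the parathyroid hormone and cAMP arm 2 of 11 genes rose, none fell and 9 did not pass, with a median difference of -0.058. Cebpb, a transcription factor gene that acts on the Cyp24a1 promoter, rose 2.15-fold. Its levels were 2.21, 2.22, 2.18 and 1.74 on control arrays and 3.04, 3.14, 3.02 and 3.56 on cinacalcet arrays, a difference of 1.10 (SE 0.16, limma adjusted p = 0.0113). The groups lay well apart, and leaving out any 1 array kept the call (limma adjusted p up to 0.0379), as did using the 5 arrays alone (limma adjusted p = 0.0317). Crtc2, a CREB coactivator gene, rose 1.38-fold (limma adjusted p = 0.0259), and did not pass on the 5 arrays alone (limma adjusted p = 0.0699).

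Pth1r, the parathyroid hormone receptor gene, was at 6.93, 7.00, 7.12 and 6.61 on control arrays and at 6.79, 6.37, 6.42 and 6.76 on cinacalcet arrays. The 3 arrays without Y-linked signal were the lowest. The difference was -0.33 (limma adjusted p = 0.182), and after blocking on Y-linked signal it was -0.23 and passed (limma adjusted p = 0.0459).

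In the FGF23 and Klotho arm 1 of 7 measured genes fell, none rose and 6 did not pass, with a median difference of 0.088. The gene that fell was Dusp6, a phosphatase gene of ERK feedback that is induced by FGF signalling. Its levels were 3.92, 3.93, 4.02 and 4.01 on control arrays and 3.17, 3.39, 3.24 and 3.41 on cinacalcet arrays. The groups were far apart against a spread of 0.051 and 0.12 (SD), with a difference of -0.66 (SE 0.077, limma adjusted p = 0.00801). Leaving out any 1 array kept the call (limma adjusted p up to 0.0323), as did using the 5 arrays alone (limma adjusted p = 0.0313). Kl, the FGF23 coreceptor gene, was at 4.60 to 4.96 in controls and 4.39 to 4.79 with cinacalcet, with a difference of -0.24 (limma adjusted p = 0.237).

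Among the calcium and other hormone receptors none of 5 genes passed in limma, with a median difference of 0.31. Casr, the receptor that cinacalcet acts on, was at 1.15, 1.32, 1.37 and 1.67 on control arrays and at 1.54, 2.00, 2.25 and 1.81 on cinacalcet arrays. Only cinacalcet 1 lay within the control range. The difference was 0.52 (limma adjusted p = 0.0941), and it passed without control 4 (limma adjusted p = 0.0378) and after blocking on Y-linked signal, at 0.41 (limma adjusted p = 0.0304). Igf1r, the IGF1 receptor gene, differed by 0.31 (limma adjusted p = 0.134), and after the block by 0.38 (limma adjusted p = 0.0149). Prlr, the prolactin receptor gene, named after its values were seen, had the largest estimate of the 5, at 1.70 (limma adjusted p = 0.281). Its levels were -1.61, -1.37, -1.51 and 2.59 on control arrays and 0.16, 1.90, 1.83 and 1.00 on cinacalcet arrays. Control 4 was the highest of all 8 arrays and the other 3 controls were the lowest. Prlr passed without control 4 (limma adjusted p = 0.0104) and on the 5 arrays alone, at 2.08 (limma adjusted p = 0.0264), but not after the block (limma adjusted p = 0.190).

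Of 10 measured target genes of the vitamin D receptor 2 fell, none rose and 8 did not pass, with a median difference of -0.19. Ren1, the renin gene, which calcitriol is known to repress, was at 0.79 to 1.20 in controls and -0.11 to 0.38 with cinacalcet, a difference of -0.79 (SE 0.13, limma adjusted p = 0.0183). It did not pass on the 5 arrays alone (limma adjusted p = 0.0579). S100g, encoding calbindin-D9k, which calcitriol is known to induce, was at 6.84 to 7.75 in controls and 5.76 to 6.42 with cinacalcet, a difference of -0.97 (SE 0.23, limma adjusted p = 0.0436). Calcitriol is thus known to act on these 2 genes in opposite senses, and its part in their lower levels was not tested. Calb1, a further target and named after its values were seen, was at -0.85 (limma adjusted p = 0.146) and at -1.09 after blocking on Y-linked signal (limma adjusted p = 0.00636). It also passed on the 5 arrays alone (limma adjusted p = 0.0396).

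Of the 11 partners of the uptake receptors 1 fell, none rose and 10 did not pass, with a median difference of 0.032. Lrpap1, encoding the chaperone that escorts megalin through the endoplasmic reticulum, was at 6.36, 6.41, 6.37 and 5.93 on control arrays and at 5.83, 5.62, 5.71 and 5.91 on cinacalcet arrays. Control 4 lay just above the highest cinacalcet array. The difference was -0.50 (SE 0.12, limma adjusted p = 0.0480), or 1.42-fold lower. It was -0.42 after blocking on Y-linked signal (limma adjusted p = 0.0108).

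None of the 12 receptor cofactors passed in limma. Med1, a Mediator subunit gene that contacts the receptor, and Crebbp, a histone acetyltransferase gene, had the lowest p, with differences of 0.27 and -0.32 (limma adjusted p = 0.0629 and 0.0654). In both genes, and in Ncoa1, the groups did not overlap, as in 17.8% of all genes tested. Med1 and Crebbp passed after blocking on Y-linked signal (limma adjusted p = 0.0485 and 0.0424), in a fit that called 17.0% of all genes. Neither passed on the 5 arrays alone (limma adjusted p = 0.0818 and 0.136). None of the 6 electron donors of cytochrome P450 enzymes passed, and all 6 estimates were below 0, with a median of -0.21. Cyb5a, Cyb5r3, Fdx1 and Fdx2 were lower on the 3 arrays without Y-linked signal than on all other arrays. In 24.4% of all genes tested those 3 arrays did not overlap the others. After blocking on that signal the 6 differences ran from -0.23 (Por) to -0.012 (Fdx2), and none passed. Fdxr, the reductase gene that feeds mitochondrial P450 enzymes such as CYP27B1 and CYP24A1, differed by -0.16 (limma adjusted p = 0.162). Por, the donor gene for microsomal enzymes such as CYP2R1, differed by -0.30 (limma adjusted p = 0.141).

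As limits on these 6 calls, those of Crtc2, Ren1, S100g and Lrpap1 were lost with some arrays left out (limma adjusted p up to 0.0777, 0.0588, 0.101 and 0.133). S100g and Lrpap1 each lost theirs without any 1 of 7 arrays, and kept it without control 4. Another background correction or scaling left S100g at an adjusted p of up to 0.0614 in limma. Crtc2 lost its call without controls 1, 2 or 3 or cinacalcet 2, 3 or 4, and Ren1 without controls 1 or 2 or cinacalcet 3. None of the 6 passed in limma within slide row 1, within slide row 2 or with slide column as a block. Those fits called 1, 0 and 34 of all 14209 genes tested, so they say little about these 6.

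**Figure D5:**
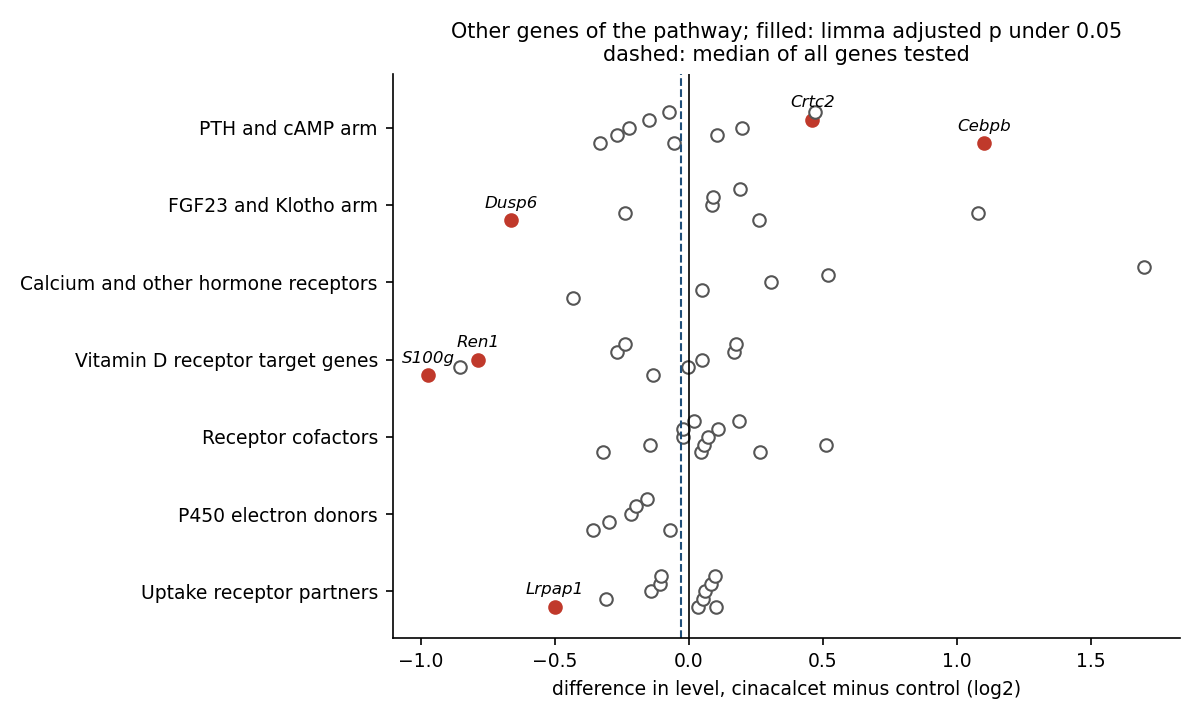
Difference in level, cinacalcet minus control (log2), for each measured gene of the 7 pathway lists, 1 point per gene, with vertical offsets only to separate points. Filled points passed at a limma adjusted p under 0.05, and the dashed line is the median of all genes tested, -0.029. The 6 filled genes are Cebpb and Crtc2 above 0 and Dusp6, Ren1, S100g and Lrpap1 below 0.

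For the hydroxylase pair with opposite roles, the genes with the most similar pattern were found by the root mean square distance between centred log2 levels over the 8 arrays. Nearest to Cyp27b1 were Plekha6 (0.263), Hsf2bp (0.264) and Nat8f7 (0.267). Their differences were -0.87, -0.81 and -0.97, which the choice by similarity to Cyp27b1 largely fixes. Among the genes nearest to Cyp24a1 were Akap5 (0.218) and Gse1 (0.228), with differences of 0.70 and 0.46, given as descriptions for the same reason.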

How the data were processed

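RNA of 8 kidney samples was measured on one-colour Agilent arrays, with groups and replicate numbers taken from the sample titles. The deposited values are spot intensities made with Agilent Feature Extraction 11.0.1.1, per the file headers, while the submitters' processing notes name version 9.5. The processed intensity is on a linear scale and background-corrected by that software, and no normalization between arrays is recorded. Control spots were left out and 118 to 147 outlier spots per array were set to missing, and no spot was saturated. Spots of a probe were averaged, log2 was taken and the 75th percentile of each array's non-control spots subtracted. A probe was kept if 4 or more of the 8 arrays had it well above background. Accessions were named through a RefSeq table of GRCm38.p6, which named 27223 probes, and the array's own annotation is on another build. The brightest probe stood for a gene, and further probes were fitted over all named kept probes.

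Groups were compared with lmFit and eBayes in limma 3.58.1 (R 4.3.3) over 14209 genes, without covariates, and the fit was tested on simulated data. The members and gene lists were chosen with earlier results of these data known. Named were the members, up to 3 called genes of each list or its 2 with the lowest p, Casr, Pth1r and Kl, and the 3 genes nearest in pattern to Cyp27b1 and to Cyp24a1, of which 1 is not reported here. Normexp used the median spot signal and an offset of 50. With 4 arrays a group, precision is limited by that number. Adrenal markers were measured for 2 of 5 genes (summed level 0.216 to 0.304 in controls and 0.229 to 0.338 with cinacalcet), and all 5 fat markers (35.8 to 113.5 and 17.5 to 47.8, 1 lower).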

Additional observations from a re-analysis of the deposited data

Results flagged for a closer look

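Among the 28 sets of 4 values tested (14 probes in 2 groups), 4 held a sample whose gap to its nearest neighbour took up more of the group's range than Dixon's 95% critical value, where chance gives about 1 set in 20. All 4 were in the control group, and 2 of them are the 2 Gc probes on the same array. The sets are not independent, since all were read on the same arrays, so 1 in 20 is only a rough guide. In Gc, control 4 lay above the other controls by 0.936 of the range on the brighter probe and by 0.835 on the other. In Rxra, control 4 lay below the other controls by 0.846 of the range. In Cyp2r1, control 1 lay below the others by 0.927 of the range. Control 4 is 1 of the 3 arrays without Y-linked signal, and its Gc level of 4.92 is close to those of the other 2.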

How the results depend on the processing

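Under 24 alternatives Cyp27b1, Rxrb, Cubn and Gc kept the sign of their difference, and the other 6 members changed sign under at least 1. Some alternatives leave the estimate as reported by their design, such as replicate number or slide row as a block. In those the sign could not change. The count of genes called, 1139 as reported, was 367 without the filter, 5438 with array weights, 2417 with Y-linked signal as a block, 34 with slide column as a block, 1 and 0 within slide rows 1 and 2, and 219 to 3359 with 1 array left out. By array left out it was 320, 219, 245 and 3359 for controls 1 to 4, and 963, 292, 278 and 533 for cinacalcet 1 to 4. The count of members called, 0 as reported, was 4 with array weights, 1 with Y-linked signal as a block and 0 to 2 with 1 array left out, the 2 being Cyp27b1 and Rxrb without control 4. For the pathway lists, 6 genes as reported, it was 10 with normexp and quantile normalization, 3 without the filter, 28 with array weights, 12 with Y-linked signal as a block, 0 with slide column as a block or within either slide row, and 2 to 15 with 1 array left out, 15 without control 4. Array weights gave -1.33 for Cyp27b1, 0.93 for Cyp24a1, -0.25 for Rxrb and 1.47 for Gc, all past the threshold, and -0.12 for Rxra. With Y-linked signal as a block Cyp27b1 was at -0.78 and passed. Slide column 1 held only cinacalcet arrays and column 4 only controls. With slide column as a block the difference thus rests on control 3 against cinacalcet 2 and control 1 against cinacalcet 3. In both pairs only the control has Y-linked signal, so treatment and that signal cannot be told apart in this setting. Differences that changed sign were, with slide column as a block, 0.049 for Cyp2r1, -0.26 for Cyp27a1, -0.030 for Vdr and -0.16 for Rxra. Within slide row 1 they were -0.074 for Cyp27a1 and -0.19 for Rxra, and within slide row 2 -0.078 for Cyp24a1, 0.24 for Cyp2r1 and -0.040 for Lrp2. On the 5 arrays with Y-linked signal they were 0.018 for Cyp2r1 and -0.028 for Rxra. With 1 array left out the ranges were -1.14 to -0.70 for Cyp27b1, -0.22 to 0.018 for Cyp2r1, -0.050 to 0.38 for Cyp27a1, -0.11 to 0.15 for Rxra, -0.23 to -0.13 for Rxrb, -0.013 to 0.13 for Lrp2, 0.42 to 0.88 for Cyp24a1, 0.062 to 0.24 for Vdr and 0.38 to 1.20 for Gc. The Cyp24a1 difference was lowest without cinacalcet 3, that of Vdr without control 4 and that of Gc without cinacalcet 2, and the highest was without cinacalcet 4, control 1 and control 4. Among pathway genes, Creb1, named after its values were seen, passed on the 5 arrays with Y-linked signal (limma adjusted p = 0.0469). The causes were not tested.

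With replicate number as a block limma called 0 genes, 2869 at an unadjusted p under 0.05, and 0 of the members and of the pathway lists. Cyp27b1 stayed at -0.96 (limma adjusted p = 0.251). The labels do not say that numbers pair the samples: deviations of same-numbered samples correlated at -0.56 to 0.34 across genes, and 1 of 8 samples correlated best with its own number.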
